A study of Mus musculus with 6 samples.

Results

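The 10 integrin subunit genes described here were followed in infarcted mouse hearts with and without the atypical chemokine receptor ACKR4. They were chosen by name, as the rows of the count table whose Ensembl identifier carries the symbol of an alpha subunit (Itga1, Itga5, Itga6, Itga7, Itga9, Itga11 and Itgav) or a beta subunit (Itgb1, Itgb3 and Itgb5). All 10 were present among 54532 rows, and all 10 passed the filter on low counts that left 14406 genes for testing. RNA was sequenced from 3 ACKR4_KO and 3 wild-type (WT) heart samples, 1 library each, taken at day 14 after myocardial infarction. Both groups were C57BL/6 and 8 to 10 weeks old and both had an infarct. The labels do not state the knockout allele, the cardiac region taken, or whether a replicate is 1 animal or a pool, so p-values measure the spread between these libraries.

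Integrins are receptors that tie cells to the extracellular matrix. Each is a pair of an alpha and a beta subunit, and the pair decides the ligand. Integrins with beta 1 bind laminin (alpha 6 and alpha 7), collagen (alpha 1 and alpha 11), fibronectin (alpha 5) or tenascin and related ligands (alpha 9). Among the beta subunits described here, alpha v can join beta 1, beta 3 or beta 5. Integrins with alpha v bind vitronectin and fibronectin, and some can release active TGF-beta from its latent complex. In the heart, alpha 7 beta 1 anchors cardiomyocytes to their basement membrane, while alpha 11 beta 1 is a collagen receptor of fibroblasts.

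Total counts lay between 10971206 and 12238996 reads in ACKR4_KO libraries and between 9422462 and 13910358 reads in WT libraries. The targeted gene followed the labels, with 4, 1 and 12 reads of Ackr4 in ACKR4_KO replicates 1, 2 and 3 and 165, 151 and 169 reads in WT replicates 1, 2 and 3. Levels are given as CPM, read counts scaled to a common library size with TMM factors. The summed CPM of 10 cardiomyocyte markers was 39712, 54446 and 47142 in ACKR4_KO replicates 1, 2 and 3 and 36239, 38197 and 30493 in WT replicates 1, 2 and 3, so the labelled tissue carried its defining transcripts. ACKR4_KO replicate 2 had the lowest fibroblast transcripts, with a summed level of 10 fibroblast markers of 4170 CPM, against 10092 and 13995 CPM in ACKR4_KO replicates 1 and 3 and 10864 to 12268 CPM in WT libraries. All 10 endothelial markers were lower in mean in ACKR4_KO, with summed levels of 1765 to 2415 CPM in ACKR4_KO and 2425 to 2644 CPM in WT. Transcripts of lung epithelium (10 markers) summed to 0.727 to 2.88 CPM in ACKR4_KO and to 42.0 to 259 CPM in WT, and Sftpc, Sftpd, Cldn18, Slc34a2 and Scgb1a1 were at 0 reads in every ACKR4_KO library. Fast skeletal muscle markers (10 listed, 7 tested) overlapped in sum, at 1221 to 2545 CPM in ACKR4_KO and 1545 to 2091 CPM in WT. Of the 7 tested, 6 had a negative log2 fold change, ACKR4_KO minus WT, with a median of -3.05. At an unadjusted p under 0.05 by edgeR there were 4 of 7, against 7.45% of all genes. For the cell types of the heart, fewer cells of a type and less RNA per cell cannot be told apart in bulk tissue. Lung epithelium is not part of the heart, and why its transcripts differed between the genotypes was not tested.

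The comparison asked which of these receptor chains differ between the genotypes after infarction. None of the 10 passed edgeR's quasi-likelihood test at an adjusted p of 0.05, where the background over all 14406 genes was 0%. The targeted gene Ackr4, with a log2 fold change of -4.70, did not pass this test either (adjusted p = 0.0990 by edgeR). A subunit that does not pass is therefore not shown to be unchanged. At an unadjusted p under 0.05 the count was 0 of 10, against 7.45% of all genes. DESeq2 on unfiltered genes called 0.234% of the genes it gave an adjusted p and 0 of the 10, with a smallest adjusted p of 0.911 for Itga7. Fitted log2 fold changes, ACKR4_KO minus WT, lay between -0.45 for Itga11 and 0.34 for Itga7, with a median of -0.13, against 0.01 over all genes. Of the 10 subunits 8 had a negative fold change, against 48% of all genes. That count rested in part on ACKR4_KO replicate 2. Without this library 6 of the 10 were negative and the median was -0.06.

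**Figure D1:**
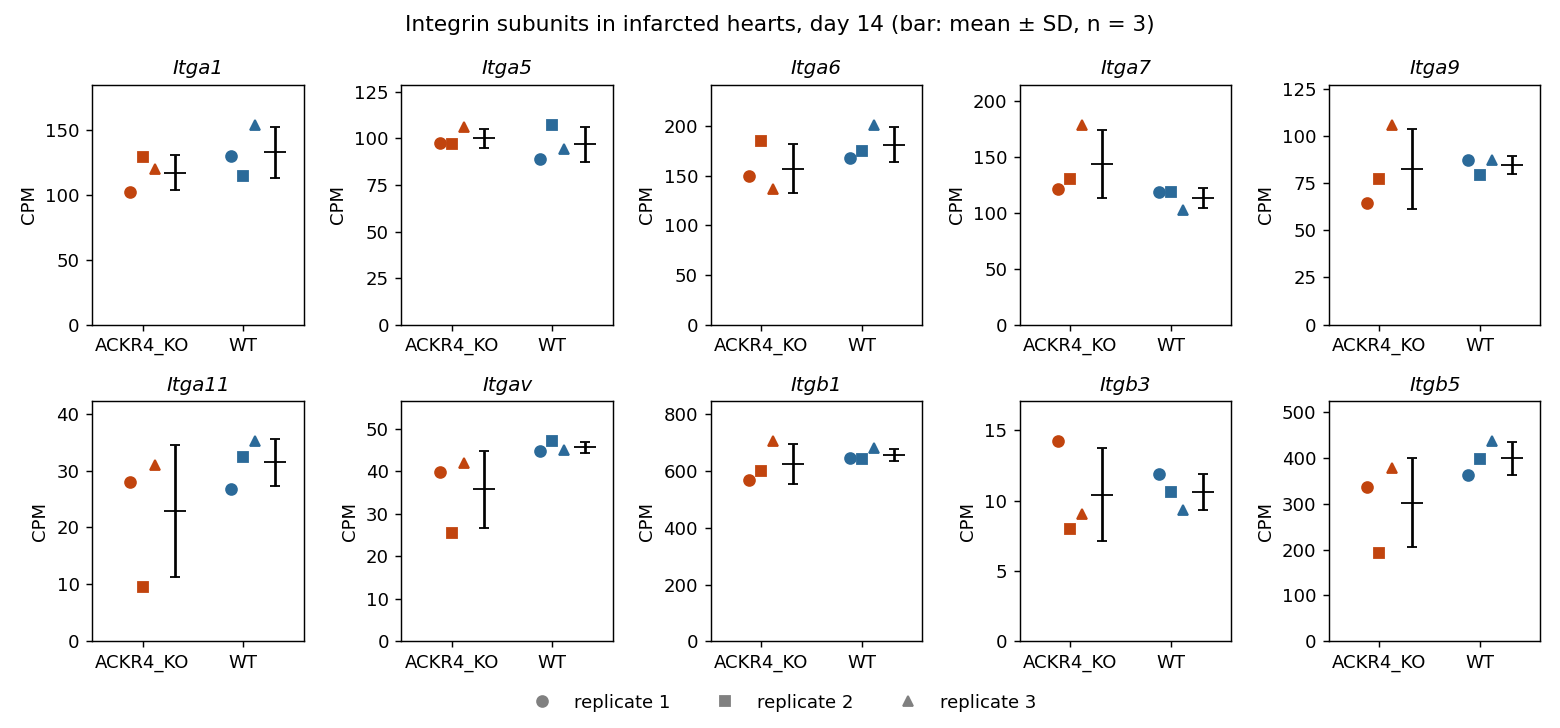
CPM of the 10 integrin subunits in each library (symbols, 1 per replicate) with the mean ± SD of each genotype (n = 3), every axis starting at 0. Itga7 is higher in each ACKR4_KO library than in any WT library, Itgav is lower, and in the other 8 panels the genotypes overlap.

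The beta 1 chain, the partner of most of these alpha chains, was the most abundant. Itgb1 (chr8:128685654-128733200, plus strand of GRCm38) had 570, 599 and 704 CPM in ACKR4_KO replicates 1, 2 and 3, against 645, 641 and 680 CPM in WT replicates 1, 2 and 3. The groups overlapped, since ACKR4_KO replicate 3 was the highest of the 6 libraries and ACKR4_KO replicate 1 the lowest. Its mean was 624 ± 70.8 CPM in ACKR4_KO and 655 ± 21.2 CPM in WT (SD, n = 3 each). Its fitted log2 fold change came to -0.07, standard error 0.15 (adjusted p = 0.921 by edgeR), and its 95% interval ran from 0.751-fold to 1.21-fold. The log2 value was -0.0083 without ACKR4_KO replicate 1 and -0.16 without ACKR4_KO replicate 3.

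Itgb5 (chr16:33829665-33949338, plus strand), which pairs with alpha v to bind vitronectin, had 336, 192 and 378 CPM in ACKR4_KO and 363, 397 and 436 CPM in WT, in replicates 1, 2 and 3 of each. The groups overlapped, because ACKR4_KO replicate 3 lay above WT replicate 1, and ACKR4_KO replicate 2 was far below the other libraries. edgeR estimated a log2 fold change of -0.40, standard error 0.24 (adjusted p = 0.707 by edgeR), and -0.16 without ACKR4_KO replicate 2. Itgb3 (chr11:104608000-104670476, plus strand), the beta subunit of platelets and osteoclasts and of some activated vascular cells, was the least abundant subunit. It had 14.2, 7.99 and 9.08 CPM in ACKR4_KO and 11.9, 10.6 and 9.37 CPM in WT. ACKR4_KO libraries held both the highest and the lowest value, and the log2 fold change came to -0.02, standard error 0.24 (adjusted p = 0.985 by edgeR). Its sign turned to 0.14, 0.08 and 0.07 without ACKR4_KO replicate 2, ACKR4_KO replicate 3 or WT replicate 1. The summed level of 10 platelet markers was 27.7 to 49.1 CPM in ACKR4_KO and 31.98 to 34.1 CPM in WT. Itgb3 rested on 78 to 176 reads per ACKR4_KO library and 103 to 153 reads per WT library.

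Among alpha subunits, Itga7 was the one with a higher mean in ACKR4_KO and no overlap between the genotypes. Itga7 (chr10:128933818-128958282, plus strand), the laminin-binding partner of beta 1 in striated muscle, had 122, 131 and 179 CPM in ACKR4_KO replicates 1, 2 and 3, against 119, 119 and 103 CPM in WT replicates 1, 2 and 3. ACKR4_KO replicate 1 lay just above the highest WT library, and ACKR4_KO replicate 3 was far above all others. Means were 144 ± 30.7 CPM in ACKR4_KO and 113 ± 9.25 CPM in WT (SD, n = 3 each). On the log2 scale the fitted fold change came to 0.34, standard error 0.17 (adjusted p = 0.682 by edgeR), a 95% interval of 0.976-fold to 1.64-fold. It was positive in all 16 alternative fits and smallest, at 0.16, without ACKR4_KO replicate 3. Groups that do not overlap with ACKR4_KO higher were found in 6.53% of all genes, so 1 of 10 subunits was near the background. The summed cardiomyocyte markers did not overlap either, and the sum was highest in ACKR4_KO replicate 2. Single markers differed in this. Myh6, Tnnt2, Tnni3, Pln, Atp2a2 and Myl2 were highest in ACKR4_KO replicate 2. Actc1, Ryr2, Ttn and Nppa were highest in ACKR4_KO replicate 3, as was Itga7. The part of cardiomyocyte transcripts in the level of Itga7 was not tested.

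The other laminin receptor chain had a lower mean in ACKR4_KO, with overlap. Itga6 (chr2:71745616-71858416, plus strand), which pairs with beta 1 in endothelium and with beta 4 in epithelium, had 150, 185 and 136 CPM in ACKR4_KO and 168, 175 and 201 CPM in WT. ACKR4_KO replicates 1 and 3 were the 2 lowest libraries, and replicate 2 lay among the WT values. Its fitted log2 fold change came to -0.21, standard error 0.15 (adjusted p = 0.747 by edgeR). It was -0.34 without ACKR4_KO replicate 2, -0.11 without ACKR4_KO replicate 3 and -0.13 without WT replicate 3. Within libraries, Itga6 minus Itga7 on the log2 CPM scale was 0.30, 0.50 and -0.39 in ACKR4_KO replicates 1, 2 and 3 and 0.50, 0.56 and 0.97 in WT replicates 1, 2 and 3. This difference does not depend on the scaling of the libraries. The groups did not overlap, but only just, at 0.498 in ACKR4_KO replicate 2 and 0.501 in WT replicate 1. Means were 0.14 ± 0.47 in ACKR4_KO and 0.67 ± 0.25 in WT (SD, n = 3 each). This difference uses the same Itga7 counts as above and is not independent of them. The exact two-sided permutation test gave p = 0.1, the smallest that 3 against 3 libraries allow (adjusted p = 0.35 over 7 such differences). The difference of -0.54 between the means was -0.28 without ACKR4_KO replicate 3, and -0.39 to -0.72 without any 1 of the others.

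The endothelial, mural cell and platelet marker sums all had the same order over the 3 ACKR4_KO libraries as Itga6. With 3 libraries, few orders are possible. Relative to its mean over the 6 libraries on the log2 scale, the endothelial sum was -0.17, 0.09 and -0.36 in ACKR4_KO replicates 1, 2 and 3, the mural sum was -0.10, 0.00 and -0.29, and Itga6 was at -0.16, 0.14 and -0.30. The same values in WT replicates 1, 2 and 3 were 0.10, 0.12 and 0.22 for the endothelial sum, 0.04, 0.10 and 0.26 for the mural sum and 0.00, 0.06 and 0.26 for Itga6. The platelet sum was 35.5, 49.1 and 27.7 CPM in ACKR4_KO replicates 1, 2 and 3 and 31.98, 33.4 and 34.1 CPM in WT replicates 1, 2 and 3. The part of any of these cell types in the level of Itga6 was not tested.

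Itga7 also stood higher relative to its own partner chain. This comparison uses the same Itga7 counts as those above and is not independent of them. Itga7 minus Itgb1 was -2.23, -2.19 and -1.98 on the log2 CPM scale in ACKR4_KO and -2.44, -2.43 and -2.72 in WT, a difference of 0.40 between the means. Every ACKR4_KO library lay above every WT library (exact permutation p = 0.1, two-sided, adjusted p = 0.35, n = 3 each). Leaving out any 1 library kept this difference between 0.30 and 0.45. In the other 5 pairs the libraries overlapped, with exact p from 0.2 for Itga7 minus Itga11 to 0.8 for Itga9 minus Itga1.

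Both collagen receptor chains were measured. Itga11 (chr9:62677826-62783982, plus strand), the fibroblast chain, had 27.9, 9.53 and 31.0 CPM in ACKR4_KO replicates 1, 2 and 3, against 26.8, 32.3 and 35.1 CPM in WT replicates 1, 2 and 3. ACKR4_KO replicate 2 was the only low library, and ACKR4_KO replicates 1 and 3 lay inside the WT range. The log2 fold change of -0.45 had a standard error of 0.39 (adjusted p = 0.792 by edgeR), and it was -0.09 without ACKR4_KO replicate 2. Itga1 (chr13:114953096-115101964, minus strand), a collagen chain of mural, endothelial and stromal cells, had 102, 129 and 121 CPM in ACKR4_KO and 130, 115 and 154 CPM in WT. The groups overlapped, with a log2 fold change of -0.18 and a standard error of 0.15 (adjusted p = 0.780 by edgeR). Leaving out ACKR4_KO replicate 1 gave -0.09, leaving out WT replicate 3 gave -0.06, and leaving out WT replicate 2 gave -0.28.

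The fibronectin receptor chain Itga5 had the narrowest interval of the 10 subunits. Itga5 (chr15:103344286-103366763, minus strand) had 97.3, 97.2 and 106 CPM in ACKR4_KO and 88.9, 107 and 94.5 CPM in WT. All ACKR4_KO values lay within the WT range, and the 95% interval of the ratio ran from 0.856-fold to 1.25-fold (adjusted p = 0.930 by edgeR). Itga9 (chr9:118606690-118901003, plus strand), a receptor for tenascin C and VCAM1 with a role in lymphatic valves, had 64.4, 77.4 and 106 CPM in ACKR4_KO and 87.4, 79.0 and 87.1 CPM in WT. ACKR4_KO libraries lay on both sides of the WT values, with a log2 fold change of -0.04 and a standard error of 0.18 (adjusted p = 0.971 by edgeR). Its sign turned to 0.12 without ACKR4_KO replicate 1 and to 0.01 without ACKR4_KO replicate 2. Itga9 and Itga11 lie on chromosome 9 with Ackr4, 14.5 Mb and 41.3 Mb from it.

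Itgav (chr2:83724397-83806916, plus strand), the alpha v chain, was the subunit with a lower mean in ACKR4_KO and no overlap. It had 39.9, 25.4 and 42.0 CPM in ACKR4_KO replicates 1, 2 and 3, against 44.8, 47.0 and 45.0 CPM in WT replicates 1, 2 and 3. The WT libraries were nearly equal, ACKR4_KO replicates 1 and 3 were below them and replicate 2 was far below. edgeR estimated a log2 fold change of -0.35, standard error 0.18 (adjusted p = 0.691 by edgeR), a 95% interval of 0.590-fold to 1.05-fold, and -0.15 without ACKR4_KO replicate 2. No overlap with ACKR4_KO lower was found in 7.63% of all genes, so again 1 of 10 subunits was near the background.

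**Figure D2:**
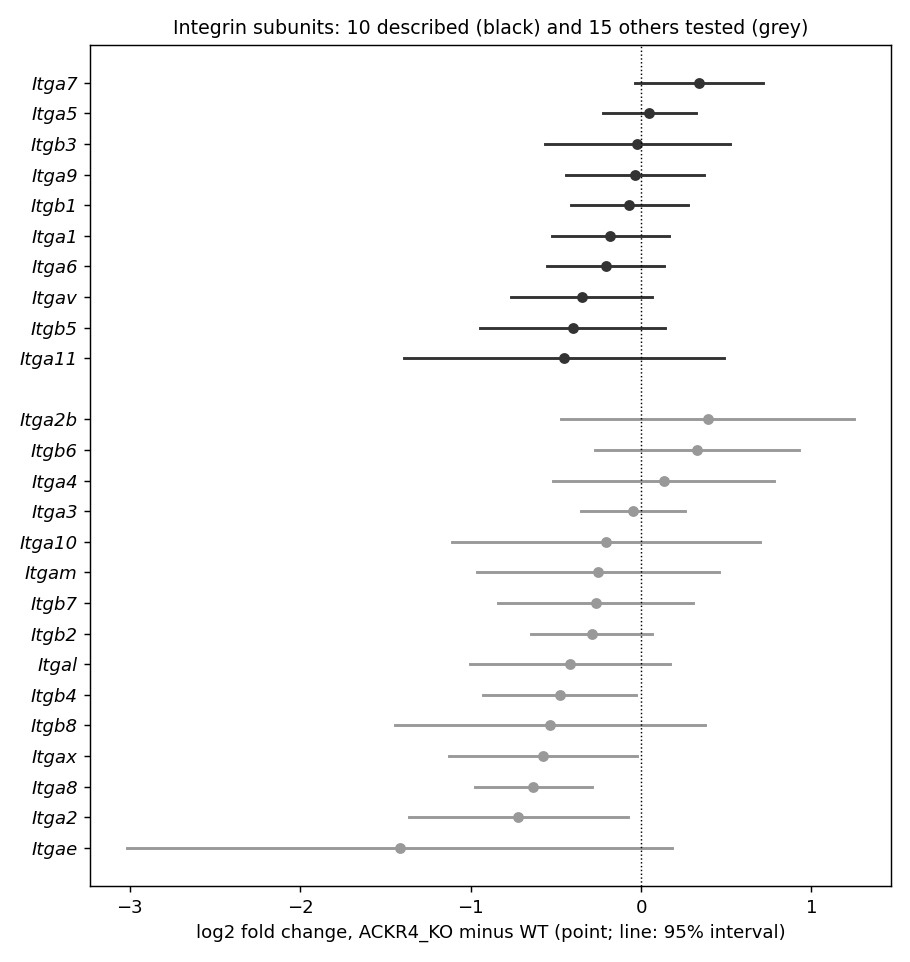
Log2 fold change, ACKR4_KO minus WT, with its 95% interval from edgeR's quasi-likelihood fit for the 10 subunits (black) and the 15 other integrin subunits tested (grey). Every interval of the 10 subunits includes 0, and Itga8, Itga2, Itgax and Itgb4 are the 4 whose unadjusted interval does not.

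The alpha v beta 5 chains and Itga11 were low together in ACKR4_KO replicate 2. Relative to the mean of the 6 libraries on the log2 scale, this library was at -0.65 for Itgav, -0.82 for Itgb5 and -1.39 for Itga11, and the summed fibroblast markers were at -1.24. Itgb1 was at -0.09, Itga5 at -0.02, Itga6 at 0.14 and Itga7 at 0.05 in the same library. Of the 10 subunits 4 had their lowest value there, Itgb3 being the fourth, against 25.6% of all genes. Itgav and Itgb5 had the closest profiles of the 45 pairs of subunits, with a root mean square distance of 0.113 on the log2 scale. Itga5 with Itgb1 and Itga9 with Itgb1 followed closely, at 0.123 and 0.125. Of the 10 fibroblast markers 9 were lowest in this library. The exception was Dcn (decorin), at 1581, 1006 and 709 CPM in ACKR4_KO replicates 1, 2 and 3, and Pdgfra was close in replicates 2 and 3, at 62.6 and 68.1 CPM. The summed macrophage markers were also lowest in ACKR4_KO replicate 2, at -0.42, with 7 of the 10 markers at their lowest. What the fibroblast or macrophage transcripts have to do with the levels of these subunits was not tested. The spread of the subunits was larger in ACKR4_KO than in WT for 8 of 10 by the coefficient of variation, against 74.7% of all genes, and it was widest for Itga11, at 50.9% in ACKR4_KO and 13.4% in WT.

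The stretches of 250 bases before RefSeq's transcription start are shown for these 3 chains that were low together, and for Itgb1, which was not. They are RefSeq promoters of GRCm38.p6, read 5′ to 3′ on the strand of the gene, at chr2:83724147-83724396 (plus strand), chr16:33829415-33829664 (plus), chr9:62677605-62677854 (plus) and chr8:128685404-128685653 (plus). Capitals mark matches, on either strand, to a GC box (GGGCGG), an AP-1 site (TGANTCA), a Smad element (CAGAC) or a TEAD site (GGAATG), and no marked matches overlap. RefSeq places the start of Itga11 downstream of the GENCODE start used for the gene above, so the end of that window lies inside the GENCODE gene.
Itgav: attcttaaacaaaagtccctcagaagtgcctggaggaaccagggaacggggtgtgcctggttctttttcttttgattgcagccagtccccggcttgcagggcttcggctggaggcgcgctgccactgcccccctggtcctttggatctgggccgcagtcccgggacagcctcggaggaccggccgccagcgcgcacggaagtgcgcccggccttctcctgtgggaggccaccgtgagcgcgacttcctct
Itgb5: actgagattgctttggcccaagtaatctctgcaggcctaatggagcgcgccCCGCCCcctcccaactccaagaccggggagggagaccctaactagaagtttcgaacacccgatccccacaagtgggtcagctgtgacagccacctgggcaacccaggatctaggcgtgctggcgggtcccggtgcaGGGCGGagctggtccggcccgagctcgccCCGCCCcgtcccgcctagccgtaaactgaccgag
Itga11: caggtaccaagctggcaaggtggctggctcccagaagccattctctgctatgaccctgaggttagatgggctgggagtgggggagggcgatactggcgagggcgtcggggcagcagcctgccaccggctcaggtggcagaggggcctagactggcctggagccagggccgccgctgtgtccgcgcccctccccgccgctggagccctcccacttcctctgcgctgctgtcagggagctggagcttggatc
Itgb1: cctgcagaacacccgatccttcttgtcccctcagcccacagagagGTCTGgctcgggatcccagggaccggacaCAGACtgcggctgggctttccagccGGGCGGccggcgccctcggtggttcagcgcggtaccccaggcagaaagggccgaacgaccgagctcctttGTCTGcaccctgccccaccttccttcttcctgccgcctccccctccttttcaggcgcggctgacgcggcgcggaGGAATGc
The Itgb5 window held 3 GC boxes, a motif found in 32.7% of all 32851 promoter windows of this length. The Itgb1 window held 3 Smad elements (42.2% of windows hold one), 1 GC box and 1 TEAD site (12.6% of windows). The Itgav and Itga11 windows held none of the 4 motifs, and AP-1 sites (6.75% of windows) were in none of the 4 windows. The windows of Itgav, Itgb5, Itga11 and Itgb1 were 64.4%, 65.2%, 68.4% and 68.0% G or C, against a median of 52.4% over all promoters. A match is a run of letters, not a bound site. Promoter entries were matched for 7 of the 10 subunits, and those of Itga6, Itga7 and Itgb3 are not shown.

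**Figure D3:**
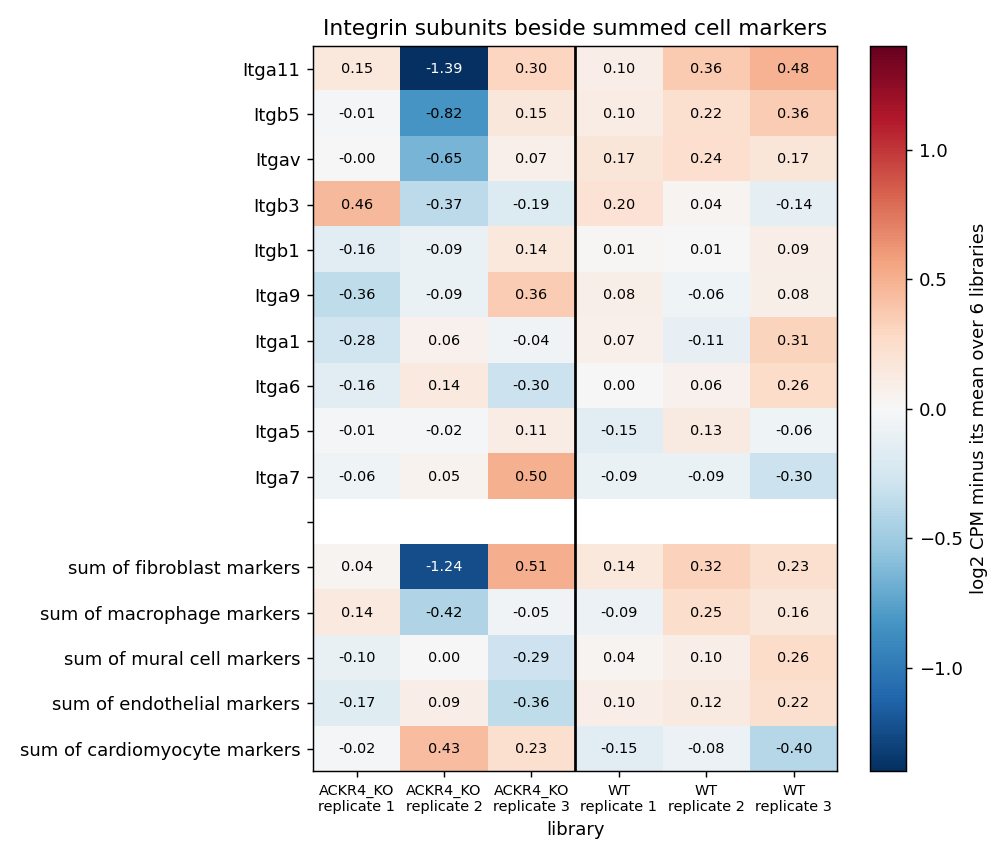
Log2 CPM minus its mean over the 6 libraries (colour and printed value) for the 10 subunits, above the same measure for the summed CPM of 5 marker lists, with ACKR4_KO libraries left of the line and WT libraries right. Itga11, Itgb5 and Itgav are low in ACKR4_KO replicate 2, as is the fibroblast sum at -1.24, while the cardiomyocyte sum there is at 0.43.

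Levels of different genes were compared per kb of exon, in CPM per kb. In both genotypes Itgb1 was highest, at 153 ± 17.4 CPM per kb in ACKR4_KO and 161 ± 5.20 CPM per kb in WT, followed by Itgb5, at 84.96 ± 27.4 CPM per kb in ACKR4_KO and 112 ± 10.2 CPM per kb in WT (SD, n = 3 each). The ranges of these 2 did not overlap in either genotype, nor did that of Itgb5 with the next gene. Itga5, Itga7 and Itga6 followed in ACKR4_KO, at 20.3, 17.8 and 17.4 CPM per kb with overlapping ranges, and Itga6, Itga5 and Itga7 in WT, at 20.1, 19.6 and 14.0 CPM per kb, where only Itga6 and Itga5 overlapped. Itga9 was next in both, at 10.7 CPM per kb in ACKR4_KO and 10.99 CPM per kb in WT. The lowest levels belonged to Itga1, Itga11, Itgav and Itgb3, where Itgb3 ranged over 1.35 to 2.41 CPM per kb in ACKR4_KO and 1.59 to 2.02 CPM per kb in WT. Their ranges overlapped from one to the next in ACKR4_KO, and in WT those of Itga1 and Itga11 did. With the length of the longest transcript in place of all annotated exons, Itga7 stood above Itga5 in both genotypes, at 35.7 against 22.7 CPM per kb in ACKR4_KO and 28.2 against 21.9 CPM per kb in WT. The 7 alpha subunits summed to 74.4 to 88.9 CPM per kb in ACKR4_KO and 79.1 to 84.8 CPM per kb in WT. The 3 beta subunits summed to 202 to 280 CPM per kb in ACKR4_KO and 262 to 291 CPM per kb in WT.

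Among the 6 alpha subunits other than alpha v, the share of each within a library was compared. The shares come from the same counts as above and are not independent of them. Itga7 made up 21.3%, 21.5% and 26.0% in ACKR4_KO replicates 1, 2 and 3 and 19.6%, 18.7% and 15.8% in WT replicates 1, 2 and 3. The means were 22.9% ± 2.67 in ACKR4_KO and 18.0% ± 2.00 in WT (SD, n = 3 each), without overlap, at an exact two-sided permutation p of 0.1 (adjusted p = 0.48 over 6 shares). Itga11 took 7.71%, 2.47% and 7.11% in ACKR4_KO and 6.98%, 8.02% and 8.49% in WT (exact permutation p = 0.3). For Itga1, Itga5, Itga6 and Itga9 the shares overlapped between genotypes, with exact permutation p from 0.2 to 0.9.

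**Figure D4:**
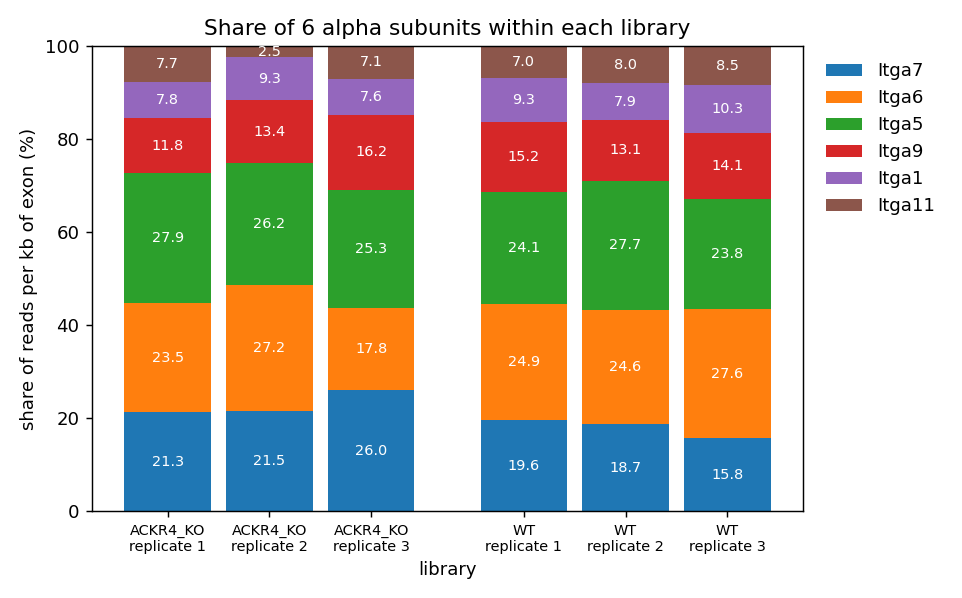
Share (%) of each of 6 alpha subunits in their summed reads per kb of exon, 1 bar per library from 0 to 100. Itga7, at the bottom of each bar, takes 21.3% to 26.0% in ACKR4_KO libraries and 15.8% to 19.6% in WT libraries, and Itga11, at the top, is thinnest in ACKR4_KO replicate 2 at 2.47%.

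The genes whose profiles over the 6 libraries were nearest to a subunit were taken from 9452 genes with a mean of at least 10 CPM. For Itga7 they were Arpp19, Fam173a and Snapc3, with root mean square distances of 0.03 to 0.05 on the log2 scale. For Itga11 they were B3gnt9, Tmem119 and Adamts2, at 0.05 to 0.09, and each of these was between -1.31 and -1.34 in ACKR4_KO replicate 2. For Itgb1 they were Arpin, Cdc42 and Gnb1, at 0.01 to 0.03. These are the nearest of many genes over 6 libraries, given as a description.

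The 16 other integrin subunits, among them the leukocyte, platelet and epithelial chains, were less abundant in sum. They summed to 113 to 137 CPM in ACKR4_KO and 135 to 156 CPM in WT, against 1453 to 1811 CPM and 1685 to 1844 CPM for the 10 subunits. Not every single gene was lower. Itgb2 averaged 32.2 CPM in ACKR4_KO and 39.4 CPM in WT, above Itga11 and Itgb3. Itgad did not pass the filter on low counts. Of the 15 tested, 0 passed edgeR's adjusted threshold, 12 had a negative log2 fold change, and the median was -0.29. Without ACKR4_KO replicate 1 or ACKR4_KO replicate 3 the median was -0.47 or -0.48. At an unadjusted p under 0.05 by edgeR there were 4 of 15, against 7.45% of all genes in either direction. All 4 were lower in ACKR4_KO, as were 524 of the 14406 genes tested at this p. These 4 also had no overlap, which in this direction was found in 7.63% of all genes.

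Itga8 (alpha 8, a receptor for nephronectin on mesenchymal and mural cells) had 8.00, 8.61 and 7.77 CPM in ACKR4_KO replicates 1, 2 and 3, against 12.5, 12.8 and 12.5 CPM in WT replicates 1, 2 and 3. Within each genotype the libraries were close to each other, and ACKR4_KO replicate 2 did not stand apart. On the log2 scale the fitted fold change came to -0.63, standard error 0.15, and it did not pass (adjusted p = 0.606 by edgeR, 0.228 to 0.999 over 16 alternatives). Its log2 fold change stayed between -0.72 and -0.60 in all of them. Itga2, a collagen chain of epithelium and platelets, had 2.38 ± 0.529 CPM in ACKR4_KO and 3.93 ± 0.301 CPM in WT (SD, n = 3 each). Itgb4, the hemidesmosomal partner of alpha 6, had 6.57 ± 1.18 CPM in ACKR4_KO and 9.18 ± 0.451 CPM in WT, and Itgax, the CD11c chain of dendritic cells and macrophages, had 6.03 ± 1.503 CPM in ACKR4_KO and 9.01 ± 1.51 CPM in WT. Their adjusted p by edgeR was 0.661, 0.663 and 0.664. Summed lymphocyte markers (10 listed) were at 9.08 to 11.1 CPM in ACKR4_KO and 16.1 to 21.6 CPM in WT, without overlap, and their part in the levels of the leukocyte chains was not tested. Summed macrophage markers overlapped between the genotypes, at 1291 to 1896 CPM in ACKR4_KO and 1622 to 2049 CPM in WT. Summed lung epithelium markers were at most 2.88 CPM in ACKR4_KO and at least 42.0 CPM in WT, and summed mural cell markers were at 1561 to 1916 CPM in ACKR4_KO and 1958 to 2280 CPM in WT. The part of lung tissue or of mural cells in the levels of Itga8, Itga2, Itgb4 and Itgax was not tested.

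Of 26 adaptor genes that link integrin tails to actin or to signalling, 25 were tested and 0 passed, 13 with a positive and 12 with a negative fold change (median 0.00). Beside the muscle chain Itga7 stood Itgb1bp2 (melusin, a muscle protein that binds the beta 1 tail), with 93.5, 178 and 110 CPM in ACKR4_KO and 103, 111 and 87.1 CPM in WT, high only in ACKR4_KO replicate 2 (adjusted p = 0.737 by edgeR). The parvins, which bind integrin-linked kinase, had opposite signs. Parvb averaged 109 ± 17.2 CPM in ACKR4_KO and 90.4 ± 2.89 CPM in WT, and Parva 77.0 ± 5.77 CPM in ACKR4_KO and 89.3 ± 3.68 CPM in WT (SD, n = 3 each, adjusted p = 0.691 by edgeR for both). Tgfb1i1 (Hic-5, a paxillin relative) had a log2 fold change of -0.23 (adjusted p = 0.740 by edgeR).

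Of 26 ligand genes, 22 had a negative fold change, with a median of -0.14, and 17 had their lowest value in ACKR4_KO replicate 2. Without that library the median was 0.01, and without ACKR4_KO replicate 3 it was -0.54. None passed edgeR's adjusted threshold, and 2 of 26 had an unadjusted p under 0.05, near the 7.45% of all genes. Npnt (nephronectin, the basement membrane ligand of alpha 8 beta 1) had 3.31, 1.84 and 0.960 CPM in ACKR4_KO replicates 1, 2 and 3, against 7.16, 5.97 and 7.37 CPM in WT replicates 1, 2 and 3. All ACKR4_KO libraries lay below all WT libraries. Its fitted log2 fold change came to -1.73, standard error 0.39 (adjusted p = 0.606 by edgeR). It passed in both fits made without the filter on low counts, by edgeR (adjusted p = 0.0267) and by DESeq2 (adjusted p = 0.0307), and the range over 16 alternatives was 0.0267 to 0.999. Npnt is also made by alveolar epithelium, and the part of the lung transcripts in WT was not tested.

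Vtn (vitronectin, a ligand of alpha v integrins) averaged 45.2 ± 10.54 CPM in ACKR4_KO and 62.2 ± 7.399 CPM in WT (SD, n = 3 each), with overlap and an adjusted p of 0.661 by edgeR. Col4a1 (a chain of basement membrane collagen, bound by alpha 1 beta 1) averaged 1054 ± 191 CPM in ACKR4_KO and 1377 ± 112 CPM in WT (adjusted p = 0.682 by edgeR). Svep1 (a matrix ligand of alpha 9 beta 1) had 55.0, 23.0 and 68.5 CPM in ACKR4_KO and 75.3, 79.9 and 84.2 CPM in WT (adjusted p = 0.691 by edgeR). With Npnt, Col4a1 and Svep1 the ligands without overlap were 3 of 26, all lower in ACKR4_KO, against 7.63% of all genes, and Svep1 was lowest in ACKR4_KO replicate 2.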

How the data were processed

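The authors deposited 1 table of unnormalized read counts per gene, with a column for each of 6 libraries (3 ACKR4_KO, 3 WT). Build mm10 and the programs HISAT2, HTSeq 0.6.0 and CASAVA 1.8.2 are named in the submitters' processing notes. The sources used here state neither the annotation release nor the strand setting. Rows named by Ensembl identifier were given symbols (54409 of 54532), coordinates and exon lengths from GENCODE M21 on GRCm38, the assembly of mm10. By that annotation Itga1 shares 685 exonic bases with Gm49395, which had at most 8 reads in a library, Itgav 634 with the antisense Gm13684, at 0 reads, and Itga7 9 with Mettl7b, with at most 1. The count of Itga1 is uncertain to that extent, as are those of Itgav and Itga7 if reads were counted without regard to strand.

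Genes were filtered with filterByExpr of edgeR 4.0.16 (minimum count 10, total 15), scaled by TMM and tested with its robust quasi-likelihood test, two-sided. P-values were adjusted by Benjamini-Hochberg across the 14406 genes that passed, and 0.05 was the threshold. Standard errors are the fold change over the square root of the test statistic, and intervals are 95%. CPM and log2 CPM (prior count 0.5) used TMM-scaled sizes. Within-library differences and shares were compared by exact permutation over libraries. R 4.3.3, limma 3.58.1 and DESeq2 1.42.0 were used, and the edgeR, limma-voom and DESeq2 fits were tested on simulated data. Precision is set by 3 libraries a group and, for a gene, its reads.

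The subunits and the gene lists were chosen with earlier results of these data known. Named genes were the 10 subunits, in each companion list the 4 with the smallest p where none passed, the 3 nearest profiles of Itga7, Itga11 and Itgb1, and Ackr4. Values were known when Gm49395, Gm13684, Mettl7b, the lung markers at 0 reads, the 4 promoters and the motifs were chosen. Alternatives were RLE, upper-quartile and total-count scaling, DESeq2 without the low-count filter, limma-voom, no robust estimation, no filter and a stricter filter, removal of mitochondrial and hemoglobin genes, blocking on the replicate number, omission of single libraries, a prior count of 2 for within-library differences, and the longest transcript as the length for shares.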

Additional observations from a re-analysis of the deposited data

How the results depend on the processing

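No subunit passed the adjusted threshold in any of the 16 alternative fits. Itga1, Itga6, Itga7, Itga11, Itgav, Itgb1 and Itgb5 kept their sign in all 16, Itga5 and Itga9 in 14 and Itgb3 in 13. The count of genes past the threshold, 0 by edgeR, was 24 in edgeR without the low-count filter, 41 in DESeq2, also run without that filter, and 6 with the replicate block, and 0 to 1 with 1 library left out (Ackr4, without ACKR4_KO replicate 3). At an unadjusted p under 0.05 edgeR gave 1073 genes. With total counts as the only scaling 1 subunit was higher in ACKR4_KO, the median of the subunits was -0.22 and that of the adaptors -0.089, and Itga5 turned to -0.038. With 1 library left out, 2 to 4 subunits were higher, and medians lay between -0.48 and -0.21 for other integrin subunits, -0.053 and 0.024 for adaptors, and -0.54 and 0.010 for ligands. In the same fits Itga5 ranged from -0.0094 to 0.13, Itga9 from -0.25 to 0.12 and Itgb3 from -0.31 to 0.14, the share of Itga9 differed by -1.50 to 0.68 percentage points, and Itga9 minus Itga1 by -0.060 to 0.22. Ackr4 passed without the low-count filter in edgeR (adjusted p = 8.58e-05) and in DESeq2 (adjusted p = 1.41e-18), and without ACKR4_KO replicate 3 in edgeR (adjusted p = 0.00331). The causes were not tested.

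The replicate numbers state no pairing. In replicate 2 and in replicate 3 the names of the count columns also share a number between the genotypes. In replicate 1 they do not. What the numbers in these names stand for is not stated. Deviations from the group means correlated at 0.06, 0.05 and 0.12 between same-numbered libraries, not all over 0.1. Every library correlated best with its own number in the other genotype. For ACKR4_KO replicate 2 this was nearly a tie, at 0.052 with WT replicate 2 and 0.049 with WT replicate 1. The order is read from the data, and the labels state no pairing. With the replicate block no subunit passed, and Itga7, Itgav, Itgb5 and Itga11 had log2 fold changes of 0.32, -0.38, -0.45 and -0.57. With the block, an exact sign-flip test on 3 pairs cannot go below 0.25. Reads per library were fewest for Itgb3 (78 to 176) and Itga11 (93 to 510), and standard errors were widest for Itga11, Itgb5 and Itgb3 (0.39, 0.24 and 0.24).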
